A study of Mus musculus with 28 samples.

Results

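Mesenchymal cells of the small intestine are sorted into subtypes by a small set of genes, and 10 of them are described here: Pdgfra, Pdgfrb, Cd34, Cd81, Foxl1, Gli1, Acta2, Myh11, Des and Vim. They were chosen by gene name, and all 10 were found among the 55416 genes of the mesenchymal table. That table holds 1 sample of fresh and 1 sample of immortalised mesenchymal cells, so no difference between them has a replicate check and none was tested. The study set these cells beside organoids given single ligands of the Tgfb superfamily. Tables of 26 organoid samples, which are labelled as epithelial cells, served as an epithelial reference for the same genes.

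Both mesenchymal samples came from the duodenum of PdgfraH2BeGFP mice, in which a nuclear green fluorescent protein reports the Pdgfra gene, and both are labelled Pdgfra positive. The epithelium was detached, the rest was digested with collagenase D and dispase, and adherent cells were grown in MesenCult medium. The immortalised cells were given the HPV16 E6 gene by a retrovirus, selected with puromycin and sorted by eGFP brightness, and the sample carries HIGH in its title. The level of Pdgfra in that sample is therefore tied to the gate that chose the cells. The labels do not say whether the fresh sample was sorted, how long its cells were kept in culture, or how many mice were used. Organoids came from crypts of wild-type C57BL/6 mice and were seeded in ENR medium without any Bmp or Tgfb. Samples with BMP2, BMP3, BMP4, BMP5 or BMP7 received the recombinant protein at 500 ng/ml for 24 h, and their table has 4 untreated controls. A separate table holds 3 untreated samples and 3 given recombinant Tgfb at the same dose and time. The labels give replicate numbers and do not say whether these are separate mice or cultures, so p-values measure the spread between samples, which may be technical. Libraries were sequenced in more than 1 run, samples are not assigned to runs, and a run effect cannot be told apart from the other differences.

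As background, PDGFRA and PDGFRB are receptor tyrosine kinases for platelet-derived growth factors, which the gut epithelium and the mesenchyme itself make. Cells with much PDGFRA lie against the epithelium and include the FOXL1-positive telocytes. Cells with little PDGFRA and with CD81 and CD34 lie under the crypts and secrete the BMP antagonist gremlin 1. GLI1 is both a mediator and a target of Hedgehog signals, which pass from epithelium to mesenchyme. Smooth muscle actin (Acta2), smooth muscle myosin heavy chain (Myh11) and desmin (Des) are parts of the contractile apparatus, and vimentin (Vim) is the intermediate filament protein of most mesenchymal cells. Many contractile genes are controlled by serum response factor, which binds a motif known as the CArG box.

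Upstream sequences are shown for 3 members that the results turn on: Acta2 as the most abundant, Des as the one that differed most between the mesenchymal samples, and Vim as the one that moved most often in organoids. They are the 250 bases before the annotated start in RefSeq on GRCm38.p6, whose promoter table matched 6 of the 10 members. The Acta2 stretch is chr19:34255374-34255623 on the minus strand, that of Des is chr1:75360042-75360291 on the plus strand, and that of Vim is chr2:13574061-13574310 on the plus strand. Capitals mark CArG-like boxes in Acta2, with up to 1 C or G in the core, and a TATAAA box in Vim.
Acta2: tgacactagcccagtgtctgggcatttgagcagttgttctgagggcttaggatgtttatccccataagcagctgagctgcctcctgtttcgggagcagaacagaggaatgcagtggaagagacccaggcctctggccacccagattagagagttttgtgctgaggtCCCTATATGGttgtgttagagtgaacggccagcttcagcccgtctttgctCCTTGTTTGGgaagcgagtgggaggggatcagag
Des: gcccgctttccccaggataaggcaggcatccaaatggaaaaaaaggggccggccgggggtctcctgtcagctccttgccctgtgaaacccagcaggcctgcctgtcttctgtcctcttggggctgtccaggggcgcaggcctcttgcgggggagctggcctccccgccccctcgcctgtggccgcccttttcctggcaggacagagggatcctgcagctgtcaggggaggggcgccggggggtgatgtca
Vim: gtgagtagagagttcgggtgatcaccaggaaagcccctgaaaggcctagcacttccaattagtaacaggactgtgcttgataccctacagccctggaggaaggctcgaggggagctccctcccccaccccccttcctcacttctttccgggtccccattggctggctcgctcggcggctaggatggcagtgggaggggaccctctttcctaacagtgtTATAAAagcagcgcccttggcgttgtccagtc
Counted back from the start, with -1 as the base just before it, the Acta2 boxes lie at -84 to -75 and at -34 to -25. At least 1 CArG-like box of this kind, searched on both strands, was in 8.59% of 32851 promoter windows of the same length, and a strict CArG box was in 1.47% of them and in none of the 6 members. TATAAA was in 12.4% of windows and lies at -32 to -27 in Vim. GGCGCC, also searched, was in 9.59% of windows and lies at -20 to -15 in Des, where it is left in small letters. The Gli motif GACCACCCA was in 0.225% of windows and in none of the 6. The looser box was searched after the strict one had given no match, and a match is a description of letters only.

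All levels in the mesenchymal table are in TPM, the share of transcripts after account is taken of transcript length, so that genes can be ranked within a sample. In fresh cells Acta2 was the highest member at 5112 TPM, followed by Vim at 1830.2 TPM, Myh11 at 322 TPM, Des at 197 TPM and Cd81 at 186 TPM. Pdgfrb at 144 TPM stood above Pdgfra at 37.5 TPM, and Cd34 at 11.6 TPM, Gli1 at 1.46 TPM and Foxl1 at 0.0218 TPM closed the order. In immortalised cells Acta2 and Vim were again the highest pair, Pdgfra stood above Pdgfrb, and Des had moved from the fourth place to the eighth. Whether neighbours in either order differ cannot be told from 1 sample each.

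**Figure D1:**
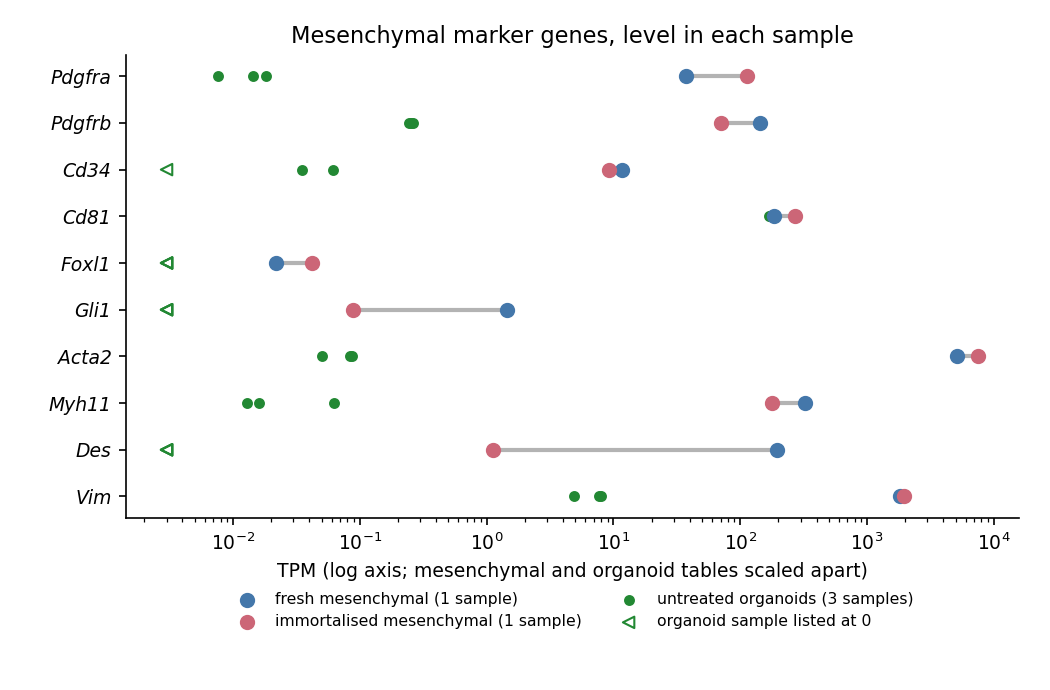
Level of each member in TPM on a log axis, in 1 fresh and 1 immortalised mesenchymal sample (large points, joined by a bar) and in 3 untreated organoid samples of the TGFb table (small points, open triangles where listed at 0). Des spans the longest bar, from 197 to 1.13 TPM, and Cd81 is the member whose organoid points lie beside its mesenchymal ones.

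In the comparison of immortalised with fresh cells, a gene was counted as different where TPM + 1 differed at least 2-fold, among the 13652 genes with a mean of at least 1 TPM. Of the 8 members that pass this level, 1 was higher in immortalised cells (Pdgfra), 2 were lower (Des and Pdgfrb) and 5 lay within 2-fold. Over all genes 6.26% were higher and 10.7% were lower, and the median log2 ratio was -0.02 against -0.10 over the 8 members. The same shares are the background of the gene lists below. Counts this small cannot be read against those shares. In these bulk samples, fewer cells of a type and less RNA per cell cannot be told apart.

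The 2 receptors differed in opposite directions. Pdgfra was at 37.5 TPM in fresh and 113 TPM in immortalised cells, a log2 ratio of 1.56 on the TPM + 1 scale (2.95-fold). The sort on the reporter of this gene is part of how the second sample was made. Pdgfrb was at 144 TPM in fresh and 70.9 TPM in immortalised cells, a log2 ratio of -1.01, which is only just past 2-fold. It was -0.97 with a pseudocount of 5 TPM and rounded to -1 without the mitochondrially encoded genes, just short of the 2-fold line both times. Among the 4 platelet-derived growth factor genes, which encode the ligands of these receptors, 3 were lower and none was higher in immortalised cells. With a pseudocount of 5 TPM 1 of the 4 was lower. Pdgfa, the main ligand of PDGFRA, was level at 53.6 and 55 TPM, and Pdgfb, a ligand of both receptors, was at 2.18 and 0.0956 TPM.

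The 2 surface markers stayed within 2-fold. Cd34, a sialomucin of stromal and endothelial cells, was at 11.6 TPM in fresh and 9.24 TPM in immortalised cells. Cd81, a tetraspanin, was at 186 and 272 TPM. Cd34 is also an endothelial gene, and the 5 endothelial markers above 1 TPM were all lower in immortalised cells. With a pseudocount of 5 TPM 2 of the 5 were lower by at least 2-fold. The summed level of the 9 endothelial markers was 42.1 TPM in fresh and 4.13 TPM in immortalised cells, with Egfl7 highest at 18.8 and 1.83 TPM. The part of endothelial cells in the Cd34 level was not tested.

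Genes that go with CD34 and CD81 in the crypt-base cells did not move as a block. Of 10 measured above 1 TPM, 2 were higher and 4 lower in immortalised cells. Grem1, the gene for gremlin 1, was at 1016 TPM in fresh and 2621 TPM in immortalised cells (2.58-fold on TPM + 1). Ly6a, which encodes the stem cell antigen Sca-1, had the largest difference upwards, at 8.53 and 58.6 TPM. Cd55, a complement regulator, had the largest difference downwards, at 29.4 and 0.974 TPM, and Dpp4 was at 9.68 TPM in fresh cells and listed at 0 in immortalised cells.

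Neither transcription factor reached a mean of 1 TPM. Foxl1, which marks telocytes, was at 0.0218 TPM in fresh and 0.042 TPM in immortalised cells, so that this defining marker was near 0 in both samples. Of 13 genes linked to telocytes and other cells with much PDGFRA, 6 passed 1 TPM, with 3 lower and none higher in immortalised cells. Over all genes 10.7% were lower and 6.26% higher, and with a pseudocount of 5 TPM 1 of the 6 was lower. F3, which encodes tissue factor, was the highest of them in both samples at 435 and 433 TPM, while Cxcl14 was at 8 TPM in fresh cells and listed at 0 in immortalised cells. F3 stayed level while Pdgfra was higher.

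Gli1 was at 1.46 TPM in fresh and 0.0878 TPM in immortalised cells. Its log2 ratio was -1.18 on the TPM + 1 scale, and -0.35 with a pseudocount of 5 TPM, as its level is low in both samples. Of 11 genes of the Hedgehog response and its receptors, 8 passed 1 TPM, 5 of these were lower in immortalised cells and none was higher. The lower count was 4 with a pseudocount of 5 TPM and 4 after quantile normalization. Gas1, a co-receptor, had the largest difference at 43.4 and 1.88 TPM. Boc, another co-receptor, was the highest of the list in fresh cells at 48.2 TPM and stood at 20.6 TPM in immortalised cells, where Smo, the signal transducer, was highest at 29.3 TPM.

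Acta2, Myh11 and the smooth muscle genes above 1 TPM stayed within 2-fold, unlike Des, which is described next. Acta2 was at 5112 TPM in fresh and 7499 TPM in immortalised cells, and 99.9% of the genes at 1 TPM or more lay below it in each sample. Myh11, which is more restricted to mature smooth muscle, was at 322 and 178 TPM, a log2 ratio of -0.85. Of 14 further smooth muscle genes 11 passed 1 TPM, and none of them differed by 2-fold, although Synpo2, at 26.6 and 12.9 TPM, passed it after rescaling by the median ratio or with a pseudocount of 0.1 TPM. Their median log2 ratio was 0.24, with Tagln, the gene for transgelin, highest at 3011 and 4505 TPM. Myocd of the same list, whose mean was under 1 TPM, was at 1.71 and 0.159 TPM, a log2 ratio of -1.23. Actin genes are near copies of each other, so the split of reads among them is uncertain. Actg2, the actin of gut smooth muscle, was at 1917 and 1854 TPM, Acta1 at 20.6 and 15.6 TPM and Actc1 at 0.568 and 0.126 TPM. The cytoplasmic actins Actb and Actg1 were at 10402 and 14900.3 TPM and at 2854 and 3452 TPM.

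Des was the member that differed most. It was at 197 TPM in fresh and 1.13 TPM in immortalised cells, a log2 ratio of -6.54 on the TPM + 1 scale (92.9-fold lower), or 174-fold on TPM itself. In fresh cells 95.6% of the genes at 1 TPM or more lay below Des, and in immortalised cells 1.62%. The other intermediate filament protein of mesenchyme, Vim, was at 1830.2 and 1976 TPM, a log2 ratio of 0.11. Vim was thus level where Des was far lower. Des also differed where Acta2, Myh11 and the smooth muscle genes above 1 TPM stayed within 2-fold. Of 8 other intermediate filament genes 6 passed 1 TPM, with 3 lower and none higher. The largest difference was in the keratin Krt18, at 19.2 and 0.0868 TPM, and Lmna, which encodes lamin A/C, was highest at 150.1 and 231 TPM.

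Markers of mural cells, which surround vessels and carry PDGFRB and desmin, gave 1 higher and 2 lower genes of 4 above 1 TPM, and the summed level of all 8 was 146 TPM in fresh and 279 TPM in immortalised cells. Mcam made up most of that sum at 118 and 276 TPM. Ndufa4l2 had the largest difference downwards of the 4, at 10.6 and 0.151 TPM. Notch3 was at 9.44 and 1.66 TPM and Cspg4 at 2.94 and 1.09 TPM. The pericyte markers Rgs5 (1.59 and 0.0268 TPM), Kcnj8 (1.56 and 0 TPM) and Abcc9 (0.871 and 0 TPM) had means under 1 TPM. Mcam was thus the only mural marker with a higher level in immortalised cells. The part of mural cells in the levels of Des and Pdgfrb was not tested.

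Mesothelial, immune, endothelial and epithelial markers had lower summed levels in the immortalised sample, and those of glia and neurons and of mural cells had higher ones. The higher mural sum came from Mcam alone. All 5 mesothelial markers were lower there, and their summed level was 132 TPM in fresh and 0.281 TPM in immortalised cells, with Upk3b highest at 58.2 and 0.141 TPM. The 3 immune markers above 1 TPM were lower, the sum of all 10 was 130.1 and 10.9 TPM, and Lyz2, a lysozyme gene of macrophages, was highest at 111 and 9.81 TPM. The 8 genes of glia and neurons summed to 66.1 TPM in fresh and 130.4 TPM in immortalised cells. Of the 5 above 1 TPM, 3 were lower and 1 was higher, and Uchl1, the higher one, was at 17.7 and 82 TPM, while Gfap, the lowest by ratio, was at 4.07 and 0.0215 TPM. With a pseudocount of 5 TPM none of these 5 was lower and 1 was higher. Tubb3 was the highest neuronal gene in fresh cells at 33.2 TPM. Etv1, the only marker of interstitial cells of Cajal above 1 TPM, was at 2.9 and 2.12 TPM. Epithelial markers summed to 34.2 TPM in fresh and 6.9 TPM in immortalised cells against 4386 TPM in untreated organoids. In fresh cells the keratins Krt18 at 19.2 TPM, Krt8 at 9.1 TPM and Krt19 at 5.37 TPM made up most of that sum. These keratins also stand in the intermediate filament list, and which cells carried them was not tested. Epcam was at 0.161 TPM in fresh cells and listed at 0 in immortalised cells. Krt19 was the highest epithelial marker in immortalised cells at 6.65 TPM, and Cdh1, Vil1, Cldn7 and Fabp2 were listed at 0 in both mesenchymal samples. Mesothelial and mural cells can contain vimentin, desmin and actin, and their part in the member levels of the fresh sample was not tested.

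Fibroblast genes common to all subtypes also differed. Of 12 such genes, 6 were lower and 3 higher in immortalised cells, with a median log2 ratio of -1.41. Col1a1, the main collagen gene, was highest in fresh cells at 5543 TPM and stood at 1483 TPM in immortalised cells. Sparc was highest in immortalised cells at 3729.7 TPM. Lum, a proteoglycan gene, had the largest difference downwards at 251 and 5.76 TPM, and Thy1, a surface marker of fibroblasts, the largest upwards at 93.7 and 474 TPM.

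**Figure D2:**
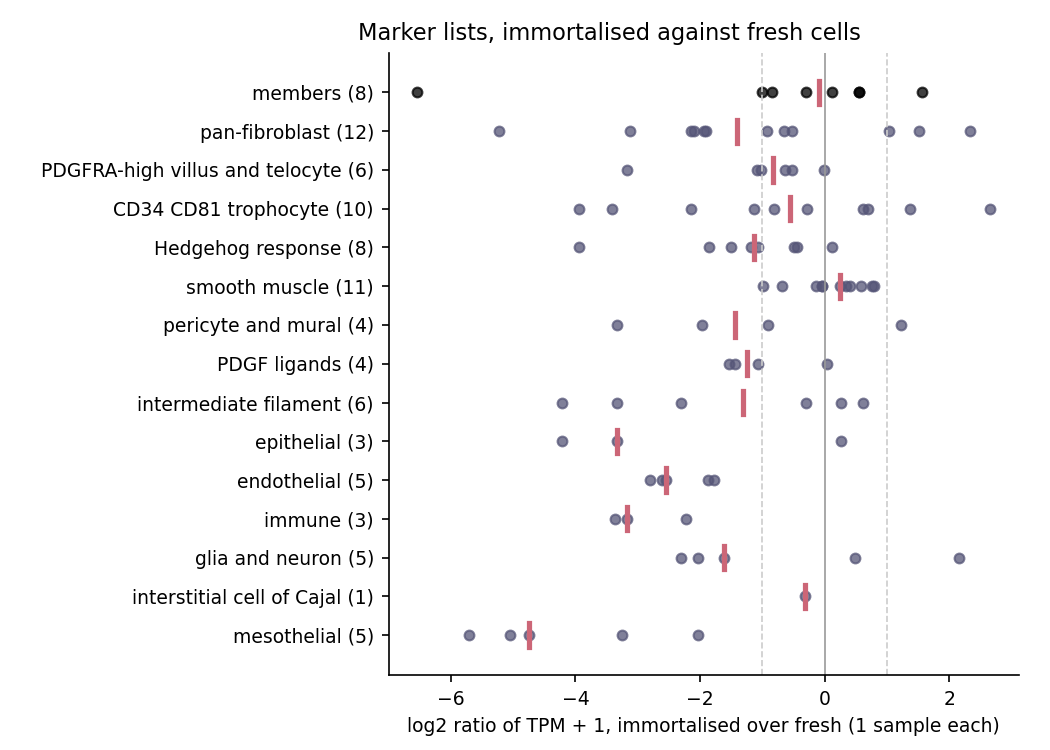
Log2 ratio of TPM + 1 in immortalised over fresh cells for each gene with a mean of at least 1 TPM (points), by list, with the list's median (bar) and the number of genes in brackets. Dashed lines mark 2-fold. The 11 smooth muscle genes all lie inside the lines, Des is the point at -6.54 among the members, and the 5 mesothelial genes all lie below -2.

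Untreated organoids had little of most members. Over the 3 controls of the TGFb table, Cd81 was at 174 ± 8.1 TPM and Vim at 6.83 ± 1.71 TPM (SD, n = 3 each). Pdgfrb was at 0.253 ± 0.00874 TPM, Acta2 at 0.0736 ± 0.0199 TPM, Cd34 at 0.0322 ± 0.0309 TPM, Myh11 at 0.0304 ± 0.0275 TPM and Pdgfra at 0.0135 ± 0.00538 TPM (SD, n = 3 each). Foxl1, Gli1 and Des were listed at 0 in all 3. Cd81 was thus near its level of 186 TPM in fresh mesenchymal cells, in tables that were scaled apart and between which no test was made. Epcam, an epithelial adhesion gene, was at 756 TPM in these organoids and at 0.161 TPM in fresh mesenchymal cells. The fibroblast genes Col1a2, Col3a1 and Dcn were listed at 0 in the 3 organoid controls. S100a6 of the same list was at 135 ± 36.5 TPM there (SD, n = 3), so the list was not absent from organoids.

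The organoid tables also show how the members respond to single ligands. Values in the BMP table are normalized counts without a correction for length, so genes are not compared with each other there. The depth was 21357270 to 24781434 recovered reads, and a single read stood for 0.826 to 1.279 normalized counts. Id1, a direct BMP target, was at 133 ± 27.4 in controls (SD, n = 4), 2810 with BMP2, 129 with BMP3, 2677 with BMP4, 843 with BMP5 and 1870 with BMP7. Of the 10 members 4 passed a mean of 10 normalized counts and were tested with limma: Vim, Cd81, Cd34 and Acta2. All 5 comparisons use the same 4 controls.

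BMP2 and BMP4 changed most of the genes tested, and the calls on the members are read against that. With BMP2, 1 member was higher and 1 lower, against 36.8% and 38.4% of the 14746 genes tested. With BMP4 none was higher and 2 were lower, against 33.7% and 31.4%. With BMP7 none was higher and 1 was lower, against 19.2% and 13.2%. With BMP5 no member was called, against 16.5% of genes higher and 9.87% lower. With BMP3 no member and 0% of all genes were called in either direction by limma (0 higher, 0 lower). An unadjusted p under 0.05 was found for 110 genes with BMP3, and edgeR called 0 genes and DESeq2 1. The median log2 fold change of the 4 members was 0.34 with BMP2, -0.02 with BMP3, -0.98 with BMP4, 0.13 with BMP5 and -0.04 with BMP7, and that of all genes lay between -0.05 and 0.04. These counts leave the replicate numbers out. With the numbers fitted as a block, 2 members were higher with BMP2 (Cd34 and Acta2), 1 with BMP4 (Cd34) and 1 with BMP7 (Acta2). In that fit 80.4%, 71.8% and 45.4% of all genes were called in either direction.

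Vim fell with BMP2, BMP4 and BMP7. The 4 controls were at 132, 119, 180 and 166 normalized counts. With BMP2 the samples were at 31.8, 37.1, 37.6 and 31.6, and with BMP4 at 26.1, 19.4 and 21.5. With BMP7 they were at 49, 62.9 and 85.6, below every control and above every BMP2 and BMP4 sample. The log2 fold change was -2.07 ± 0.205 with BMP2 (SE, limma adjusted p = 3.08e-08), -2.68 ± 0.221 with BMP4 (limma adjusted p = 7.92e-09) and -1.19 ± 0.221 with BMP7 (limma adjusted p = 0.000432). All BMP4 samples also lay below all BMP2 samples, a difference that was not tested. With BMP3 the samples were at 163, 129 and 214 and with BMP5 at 174, 118 and 163, which overlap the controls (limma adjusted p = 1 and 0.954). The fall of Vim with BMP2, BMP4 and BMP7 stayed past the threshold under every alternative tried.

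Cd81 fell with BMP4. It was at 4550, 4420, 4230 and 4650 normalized counts in controls and at 2130, 2290 and 2050 with BMP4, so the groups did not overlap. The log2 fold change was -1.05 ± 0.0957 (SE, limma adjusted p = 2.64e-08). With BMP2 the samples were at 4380, 4900, 4170 and 5710, on both sides of the controls. The direction with BMP2 turned with the scaling: the log2 fold change was 0.09 as deposited (limma adjusted p = 0.355), -0.37 with every sample at the same total (adjusted p = 0.00019) and -0.43 after quantile normalization (adjusted p = 4.9e-05), and the adjusted p reached 0.964 among its other alternatives. The same total shifts the median of all genes by -0.48 with BMP2, -0.35 with BMP4 and -0.12 with BMP7, and relative to that shift the Cd81 value with BMP2 was 0.11. With BMP5 the samples were at 4730, 5710 and 5320 (log2 fold change 0.23, limma adjusted p = 0.083), all above every control, and the adjusted p was 0.0354 without BMP5 replicate II, in a range of 0.0354 to 0.316. With BMP7 they were at 4820, 4690 and 5090 (limma adjusted p = 0.334), again all above every control, and the log2 fold change of 0.13 became -0.03 after quantile normalization.

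Cd34 passed the threshold with BMP2 only. It was at 28.4, 39.8, 35.5 and 24 normalized counts in controls and at 51.1, 47.3, 58.8 and 36.7 with BMP2, so 1 BMP2 sample lay inside the range of the controls. The log2 fold change was 0.59 ± 0.227 (SE, limma adjusted p = 0.0244). This call was lost with the same total per sample (0.15, adjusted p = 0.597), although relative to the shift of all genes the value there was 0.63. It was also lost with replicates II left out of every group (0.52, adjusted p = 0.105), without a filter on low values (adjusted p = 0.0586), and without control replicate II, control replicate VI, BMP2 replicate II or BMP2 replicate IV (adjusted p = 0.0582, 0.0882, 0.051 and 0.0756). Over all its alternatives the adjusted p ran from 0.00148 to 0.597. With BMP4 the samples were at 45, 47.9 and 43.1, all above the controls, with a log2 fold change of 0.52 (limma adjusted p = 0.0724). In the fit with the replicate block it was 0.61 with an adjusted p of 0.0228, quantile normalization gave 0.0153, and leaving out control replicate III gave 0.0446, within a range of 0.0153 to 0.686 over its alternatives. With BMP5 the samples lay at 28.7, 16.7 and 24.6 and with BMP7 at 29, 30.1 and 23.1, neither past the threshold. Whether the ligands differ from each other in Cd34 was not tested. The controls held 149 reads of Cd34 and 44 of Pdgfrb, without a correction for length. In untreated organoids of the TGFb table the order was the other way, with Cd34 at 0.0322 TPM and Pdgfrb at 0.253 TPM. The cause was not tested, and the Cd34 values of the BMP table carry this doubt.

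Acta2 was low and uneven in organoids. Controls were at 21.3, 5.81, 7.98 and 3.3 normalized counts, which is 4 to 24 reads. With BMP7 the samples were at 101, 19.1 and 12.5, and with BMP2 at 36.3, 8.95, 22.4 and 34.2. The log2 fold change was 1.79 ± 0.788 with BMP7 (SE, limma adjusted p = 0.091) and 1.43 ± 0.73 with BMP2 (limma adjusted p = 0.0849). Replicate II was the highest sample in 6 of 6 groups of the table, control included. With the replicate numbers as a block the adjusted p was 0.00564 with BMP7. Count models on recovered reads gave 0.0321 by edgeR and 0.0219 by DESeq2 for BMP7. With replicate II left out of every group, the log2 fold change was 1.36 with BMP7 (adjusted p = 0.159) and 1.65 with BMP2 (adjusted p = 0.0218). Leaving out control replicate II alone gave 0.0458 with BMP7 and 0.034 with BMP2, and leaving out BMP2 replicate III gave 0.0395 with BMP2. Over all alternatives the adjusted p ran from 0.00564 to 0.443 with BMP7 and from 0.00584 to 0.22 with BMP2, and the lower end for BMP2 too comes from the fit with the replicate block. Myl9, another smooth muscle gene, was also highest in replicate II in 6 of 6 groups, with 14.2 to 120 normalized counts in controls, and it was singled out after its values were seen. With BMP4 Acta2 was at 9.48, 1.14 and 3.59 and with BMP5 at 32.3, 15.7 and 6.39, neither past the threshold.

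Pdgfra and Pdgfrb were below the level set for testing, and their reads are given instead. Pdgfra had 2, 0, 1 and 0 reads in the 4 controls and 33, 10, 17 and 17 reads in the 4 BMP2 samples. The 77 reads with BMP2 against 3 in controls give a depth-adjusted ratio of 36.3, with a 95% interval of 12 to 179.8 that covers counting error only. With the filter on low values removed, the log2 fold change was 3.89 ± 0.588 (SE, limma adjusted p = 1.03e-05), where 43.4% of 29413 genes were called. Pdgfra had 14 reads over 3 BMP5 samples and 13 over 3 BMP7 samples, of which 10 came from replicate II. With BMP4 it had 5 reads and with BMP3 7 reads.

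Pdgfrb ran the other way with BMP2. It had 3, 14, 16 and 11 reads in controls and 0, 0, 1 and 1 reads with BMP2, a ratio of 0.0642 with a 95% interval of 0.00755 to 0.246. Without the filter its log2 fold change was -2.62 ± 0.63 (SE, limma adjusted p = 0.00161). It had 4, 4 and 4 reads with BMP7, a ratio of 0.393 with a 95% interval of 0.189 to 0.757, and 6, 5 and 5 with BMP5, a ratio of 0.516 with an interval of 0.272 to 0.932. These intervals cover counting error only, and each of these samples lay within the range of the controls. Without the filter neither ligand passed the threshold (limma adjusted p = 0.427 with BMP7 and 0.676 with BMP5). With BMP4 the 3 samples had 1, 7 and 19 reads and spanned more than the controls.

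The remaining members were at the floor of detection in organoids. Myh11 had 5 reads in the 4 controls and 12 in the 4 BMP2 samples, and at most 7 in any sample of the table. Foxl1, Gli1 and Des had no read in controls, which allows up to 2.66 normalized counts per control sample at 3 reads. Over all 20 samples, none of these 3 genes had more than 1 read in any sample. Without the filter Des with BMP4 passed the threshold on 2 reads in all (limma adjusted p = 0.0159), where 34.9% of genes were called, a level that this depth cannot resolve.

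**Figure D3:**
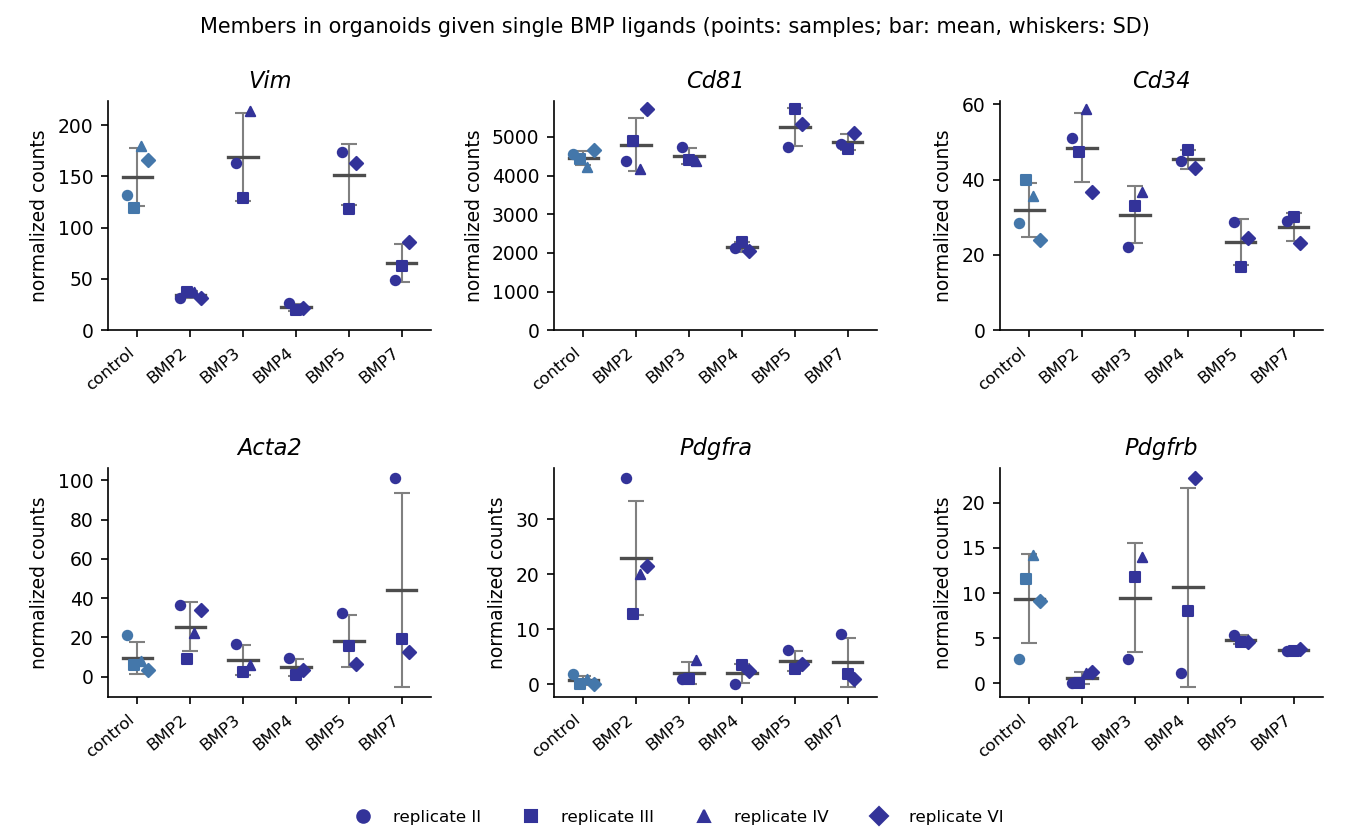
Normalized counts of 6 members in each organoid sample of the BMP table, with the group mean (bar) and SD (whiskers), for 4 controls, 4 BMP2 samples and 3 samples of each other ligand. Marker shapes give the replicate number. Vim is lowest with BMP2 and BMP4, Cd81 is lowest with BMP4, and Pdgfra is above 12 only with BMP2.

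In the TGFb table, Cd81 and Vim passed a mean of 1 TPM and were tested. With Tgfb 1 member was higher and none lower, against 27.4% and 29.3% of the 12959 genes tested. Id1 was at 8.51 TPM in controls and 63.6 TPM with Tgfb. Cd81 was at 171, 183 and 168 TPM in controls and at 233, 232 and 237 TPM with Tgfb, and the groups did not overlap. Its log2 fold change was 0.43 ± 0.0626 (SE, limma adjusted p = 0.00157), and it kept its call under every alternative tried. Vim was at 7.95, 4.86 and 7.69 TPM in controls and at 6.33, 8 and 8.8 TPM with Tgfb, which overlap (log2 fold change 0.17, limma adjusted p = 0.5).

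The 2 receptors were far below the mesenchymal level in this table, and their groups did not overlap, which also held for Acta2 and Cd34. Pdgfrb was at 0.261, 0.254 and 0.244 TPM in controls and at 0.0269, 0.0299 and 0.0194 TPM with Tgfb. Pdgfra was at 0.0183, 0.0144 and 0.00768 TPM in controls and at 0.0735, 0.0733 and 0.106 TPM with Tgfb. Neither pair of groups overlapped. Without the filter the limma adjusted p was 0.00058 for Pdgfrb and 0.0217 for Pdgfra, where 29.8% of genes were called. The log2(TPM + 1) scale compresses such low values, so no fold is taken from it, and the depth behind a TPM value is unknown. Acta2 was at 0.0862, 0.0507 and 0.0839 TPM in controls and 0.259, 0.0891 and 0.249 TPM with Tgfb (limma adjusted p = 0.134 without the filter).

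**Figure D4:**
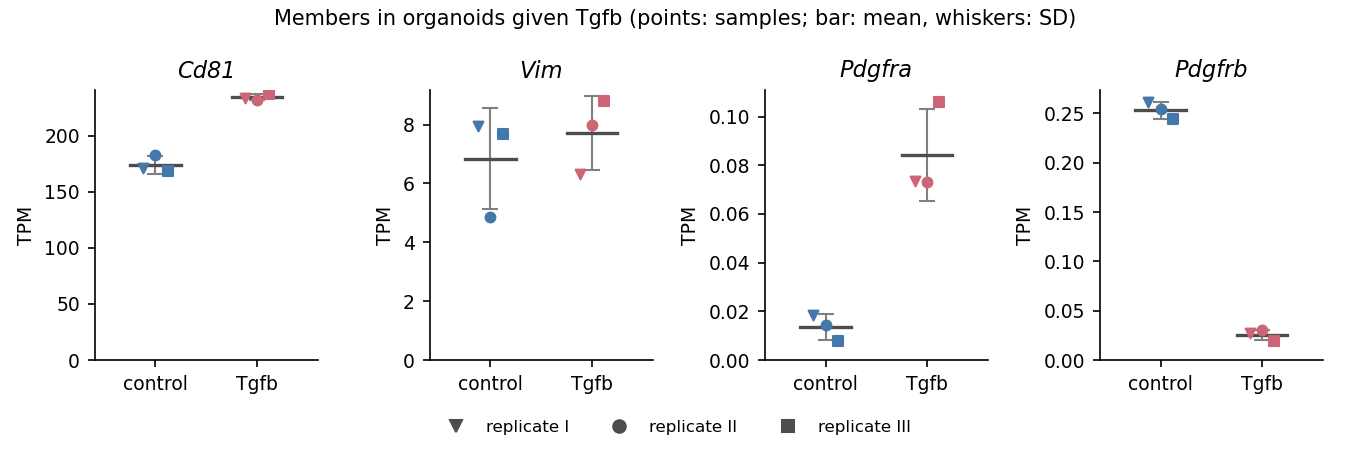
TPM of 4 members in each sample of the TGFb table, 3 controls and 3 Tgfb samples, with the group mean (bar) and SD (whiskers). Cd81 and Pdgfra are higher and Pdgfrb is lower with Tgfb without overlap, and the Vim points overlap.

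Genes that share the members' roles were also measured in the organoids. Of the smooth muscle list 6 of 14 genes were tested with BMP2, with 3 higher and 2 lower, where 36.8% and 38.4% of all genes were. The counts were 3 and 3 at the same total per sample and 4 and 2 after quantile normalization. Tpm2, a tropomyosin gene, rose by 4.76 on the log2 scale with BMP2 (limma adjusted p = 6.53e-08), and Myl9, a myosin light chain gene, fell by 4.2 (limma adjusted p = 3.25e-05). With each of BMP4, BMP5, BMP7 and Tgfb 3 of 6 smooth muscle genes were higher and none lower (2 lower with BMP4 at the same total). Over all genes 33.7%, 16.5%, 19.2% and 27.4% were higher with these 4 ligands and 31.4%, 9.87%, 13.2% and 29.3% lower. Of the intermediate filament list 5 of 8 genes were tested, and all 5 were higher with BMP2, with BMP5 and with BMP7, where 36.8%, 16.5% and 19.2% of all genes were higher. With BMP4, 4 were higher and 1 lower (3 and 1 under either rescaling), where 33.7% and 31.4% of all genes were, and Nes, the gene for nestin, fell by 1.17 on the log2 scale (limma adjusted p = 0.00372). With Tgfb 4 of 4 tested were higher. The list includes the keratins Krt8, Krt18 and Krt19, which also stand in the epithelial list, of which 8 of 10 genes were higher with BMP2. Vim was lower with BMP2, BMP4 and BMP7. Of the Hedgehog list 5 of 11 genes were tested, with 3 lower with BMP2 (5 at the same total per sample, and 2 lower and 1 higher after quantile normalization) and all 5 lower with BMP4, where 38.4% and 31.4% of all genes were lower. With BMP5 and with BMP7 1 was higher and none lower (1 and 1 with BMP7 under either rescaling), and Boc, a Hedgehog co-receptor, rose by 1.31 and by 1.5 on the log2 scale (limma adjusted p = 0.00139 and 0.000334). With Tgfb 2 were higher and 2 lower (1 and 2 after quantile normalization). Smo fell by 3.31 with BMP2 (limma adjusted p = 5.28e-12) and by 3.74 with BMP4 (limma adjusted p = 2.11e-11). Of the 12 fibroblast genes 2 were tested, and both were higher with BMP2, BMP5, BMP7 and Tgfb, and 1 with BMP4. Over all genes 36.8%, 16.5%, 19.2%, 27.4% and 33.7% were higher. Fn1 rose by 6.81 with BMP2 (limma adjusted p = 2.57e-11). With BMP2, 3 of 7 tested genes of the CD34 and CD81 list were higher and 2 lower. Of 5 tested genes linked to cells with much PDGFRA 2 were higher and 3 lower, where 38.4% of all genes were lower.

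The ligand genes for the 2 receptors were measured in the same organoids. Of 4 platelet-derived growth factor genes 3 were tested in the BMP table, with 2 higher and 1 lower with each of BMP2, BMP5 and BMP7, also under both other scalings. Over all genes 36.8%, 16.5% and 19.2% were higher and 38.4%, 9.87% and 13.2% lower with these 3 ligands. With BMP4 1 was higher and 1 lower (0 and 1 at the same total per sample), where 33.7% and 31.4% of all genes were. With BMP3 none was called. Pdgfb rose by 5.95 with BMP2 on the log2 scale (limma adjusted p = 9.31e-12), and Pdgfa fell by 0.56 (limma adjusted p = 0.00479). Pdgfa fell by 2.24 with BMP4 (limma adjusted p = 4.69e-09), 0.83 with BMP5 (limma adjusted p = 0.00173) and 1.85 with BMP7 (limma adjusted p = 4.17e-07). Pdgfc rose by 1.1 with BMP4 (limma adjusted p = 0.0121). With Tgfb Pdgfb rose by 4.28 (limma adjusted p = 7.88e-06) and Pdgfa fell by 0.98 (limma adjusted p = 0.000225). Pdgfa was at 116 TPM in untreated organoids, above its 53.6 TPM in fresh mesenchymal cells, in tables scaled apart.

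As a description of pattern, the genes most like each tested member over the 20 samples of the BMP table were taken by Pearson correlation of log2 values. For Vim they were Sidt1 (r = 0.963), Noxa1 (0.962) and Rab15 (0.961). For Cd81 they were Lfng (0.97), Mpzl1 (0.97) and Vangl2 (0.969). For Acta2 they were Fzd6 (0.892), Rel (0.861) and Epc2 (0.855), and for Cd34 they were Clock (0.831), Gm48177 (0.827) and Dnajc13 (0.826). The 20 samples share their treatments and replicate numbers, and no p is attached.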

How the data were processed

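mRNA libraries were made with the KAPA mRNA HyperPrep kit, per the labels' protocols. Trim Galore, Salmon, DESeq2 and the build GRCm39 are named per the submitters' processing notes, without versions or roles. The deposited values of the BMP table (29413 genes) are a signal, namely gene counts that the authors divided by 1 size factor per sample, as read from the values. Of 180721 values of at most 20 reads, 100.0% were whole multiples of 1 read within 0.03 read beyond the rounding of the file. The deposited values of the TGFb and mesenchymal tables are TPM, as every column sums to 1000000, although the naming speaks of normalized counts, and their depth is unknown. 0 columns were left unmapped.

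Organoid samples were compared with limma (3.58.1, under R 4.3.3) after a log2(value + 1) transform, for genes with a mean of at least 10 (BMP) or 1 TPM (TGFb). They were two-sided, with Benjamini-Hochberg adjustment over all genes tested and a threshold of 0.05. All 6 groups of the BMP table entered 1 fit, which left the replicate numbers out. edgeR 4.0.16 and DESeq2 1.42.0 were run on the recovered reads as alternatives. A log2 fold change on this scale understates the change of low genes. The limma fit was tested on simulated data. Ratios of pooled reads carry exact binomial intervals, which cover counting error only, since PCR copies cannot be told from separate molecules.

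Whether replicate numbers pair samples was checked from the labels' numbers, by correlating the deviations of same-numbered samples from their group means. It was 0.281 to 0.553 for BMP3, 0.19 to 0.225 for BMP4, 0.158 to 0.262 for BMP5 and 0.236 to 0.294 for BMP7. This is a hint that these numbers pair samples, which the labels do not state. The main fit does not use it, and the block fit is given beside it. No 2 samples were identical, and the chi-square per gene between replicates was at least 17.16.

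The members and gene lists were chosen with earlier results of these data known. Named genes are all members, per list the gene highest in each mesenchymal sample and the largest difference each way, the 3 genes most correlated with each tested member, the actin copies and Id1. Outside this rule, Dpp4, Synpo2, Myocd, Krt8, Epcam, Notch3, Cspg4, Rgs5, Kcnj8, Abcc9, S100a6 in untreated organoids and Myl9 over replicates were named after their values were seen. So were defining markers of cell types that were listed at 0 in the mesenchymal samples (Cdh1, Vil1, Cldn7, Fabp2) or in the untreated organoids (Col1a2, Col3a1, Dcn). Upstream sequences come from RefSeq on GRCm38.p6. As the build of the files differs, no other coordinates are given.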

Additional observations from a re-analysis of the deposited data

Results flagged for a closer look

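Of 15 groups of 4 organoid samples that were checked for a sample far from the others, 1 was marked. Foxl1 with BMP2 was at 1.18 normalized counts in 1 sample, which is 1 read, and at 0 in the other 3. A rate of about 1 in 20 by chance holds for values with a normal spread. A group with 1 read in 1 sample and 0 in the other 3 is always marked, so this mark carries no information. A single read is below what this depth can resolve.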

How the results depend on the processing

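Between the mesenchymal samples, 37 genes were recomputed under 5 other settings, and 180 of 185 values kept their side of the 2-fold line, 5 lost it and none turned. The count of members at least 2-fold lower was 1 with a pseudocount of 5 TPM and 1 without mitochondrially encoded genes, where Pdgfrb drops out. Gene list counts moved too. A pseudocount of 5 TPM left 3 lower genes in the CD34 and CD81 list, 2 in the intermediate filament list and 4 in the mesothelial list. It left 2 higher fibroblast genes. In organoids, 22 results gave 377 alternative values, of which 335 kept direction and call, 7 lost the call, 14 gained it and 21 turned in direction.

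The count of members higher with BMP2 was 0 with a mean of at least 50, as fewer genes are tested, 0 with the same total per sample, 2 with the replicate block, 2 with only the 2 groups compared, and 0 to 2 when 1 sample was left out (0 without control replicate VI, 2 without BMP2 replicate III). The count lower with BMP2 was 2 without a filter, where Pdgfrb enters, and 2 under either rescaling (same total, quantiles), where Cd81 enters at -0.37 and -0.43. With BMP4, 1 member was higher without a filter (Des), 1 after quantile normalization, 1 with the replicate block and 0 to 1 when 1 sample was left out (1 without control replicate III). With BMP5, 1 was higher by DESeq2 and 0 to 1 when 1 sample was left out (Cd81 without BMP5 replicate II, adjusted p = 0.0354). With BMP7, 1 was higher with the replicate block, by edgeR and by DESeq2, and 0 to 1 when 1 sample was left out (Acta2 without control replicate II). With Tgfb, 2 were higher and 1 lower without a filter.

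Small values turned without a call. With BMP3, Cd34 was 0.1 and Cd81 -0.01 with replicates II left out of every group, a setting chosen after the data were seen, and Cd81 was -0.01 after quantile normalization. When 1 sample was left out, values with BMP3 ran from -0.21 to 0.15 for Cd34, -0.02 to 0.34 for Vim, -0.8 to 0.37 for Acta2 and -0.02 to 0.03 for Cd81. Vim with BMP5 was -0.02 at the same total, -0.04 after quantile normalization, -0.14 without replicates II and -0.09 to 0.19 when 1 sample was left out. Cd81 with BMP7 was -0.03 after quantile normalization. Vim with Tgfb was -0.03 to 0.29 when 1 sample was left out. Unless stated, the cause was not tested.

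For BMP2, 3 of 4 same-numbered pairs correlated at 0.195, 0.421 and 0.308, and replicate III at 0.0182, so pairing was not shown for every pair. For Tgfb the pairs correlated at 0.00405 to 0.0696, and the samples share only a number. The replicate block gave an adjusted p of 0.00584 for Acta2 with BMP2, and besides the values for BMP4 and BMP7 in the report it changed no other call. Rescaling to the same total was not run for TPM, which already has it. Depth limits Pdgfra, Pdgfrb, Myh11, Foxl1, Gli1 and Des in organoids, and the lack of replicates limits every mesenchymal difference.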

Other observations

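Cd34 was tested in the BMP table, where its controls held 29 to 48 reads per sample, but was at 0.0322 ± 0.0309 TPM in the untreated organoids of the TGFb table (SD, n = 3) and listed at 0 in 1 of them. Cd34 with Tgfb was at 0.185, 0.0931 and 0.086 TPM, above all 3 controls (limma adjusted p = 0.11 without the filter). The tables were scaled apart and only 1 of them takes account of length, so the levels were not compared.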
